A study of Mus musculus with 6 samples.

Results

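The genes of 3 axon guidance systems, the ephrins with their Eph receptors, the Slits with their Robo receptors and the netrins with theirs, were followed in dorsal root ganglia after Wnt1-cre deletion of Ybx1. Members were taken by gene symbol from a table of 17971 genes: the Eph receptor and ephrin genes, Slit1 to Slit3, Robo1 to Robo3, the numbered netrins, the netrin-G genes Ntng1 and Ntng2, Dcc, Neo1, Unc5a to Unc5d and Draxin. This gave 41 genes, of which 40 held enough counts to be tested and 1, Robo3, did not. RNA-seq was done on these ganglia, which hold sensory neurons and glia beside the spinal cord, from E13.5 (embryonic day) mouse embryos. The 3 cKO libraries came from Wnt1-cre+/-;Ybx1fl/fl embryos, and the 3 Ctrl libraries from Ybx1fl/fl littermates without Cre; both groups carried the floxed Ybx1 alleles, and all embryos were described as male. Cre under Wnt1 control acts in the neural crest lineage, which gives rise to the sensory neurons and glia of the ganglia but not to their vessels or blood cells. The sources do not say whether a library pooled ganglia or embryos. No group carried Cre with intact Ybx1, so Cre itself and the loss of Ybx1 cannot be told apart.

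Axons find their way by reading cues on other cells and in the matrix. Ephrins are membrane-bound ligands, tethered by a lipid anchor in the A class and by a transmembrane stretch in the B class, and they act through Eph receptor tyrosine kinases, mostly as repellents on contact. Slits are secreted repellents read by Robo receptors, and netrins are secreted cues that attract through Dcc or repel through Unc5 receptors. Sensory axons of the ganglia meet all of these cues on their way to the skin, the muscles and the spinal cord.

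Depth was 16464255 to 17446363 rounded estimated counts per library. Ybx1, an mRNA-binding cold-shock protein, stood at 927, 809 and 817 normalised CPM (each count as a share of its TMM-scaled library) in Ctrl replicates 1 to 3 and at 137, 122 and 108 in cKO, so each library went with its label and cKO ganglia kept some Ybx1 RNA. Summed over the genes listed for each cell type, sensory neuron markers held 8637 to 9545 TPM (a level corrected for transcript length) in the 6 libraries, and these sums overlapped. Of the 8, 2 were lower in cKO with the replicate block in the model, Isl1 (by -0.21 on the log2 scale, edgeR adjusted p 0.0083) and Stmn2 (by -0.20, edgeR adjusted p 0.0086), and neither overlapped between the groups. Glial markers summed to 2340 to 2378 TPM in Ctrl and to 2468 to 2502 in cKO. Mesenchyme and endothelial markers overlapped between the groups. Erythroid markers reached 59068 TPM in cKO replicate 1 against 16195 to 27529 in the other 5 libraries, and macrophage markers 173 TPM there. Macrophage markers summed to 110 to 116 TPM in the 3 Ctrl libraries and to 134 and 120 in cKO replicates 2 and 3, so these groups did not overlap either. On the first principal component cKO replicate 1 was at -20.1 and Ctrl replicate 1 at -8.54, and the remaining libraries lay between 1.74 and 12.1. Within each replicate number the cKO library had the lower value.

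Most of the ganglion's guidance repertoire was detected at moderate levels. On the TPM scale, the mean level over the 6 libraries was at least 30 for 7 of 41 members, at least 10 for 23 and under 2 for 7. The highest level was that of Efnb1 (ephrin-B1, a transmembrane ligand), at 93.2 TPM, followed by Draxin, at 70.9. Neo1, the receptor neogenin, held 46.4 TPM, Robo2 40.6, Efna2 38.6, Efnb2 34.0 and Efna3 33.4. The lowest were Robo3, at 0.212 TPM, and Epha1, at 0.418. The classical netrin pair was low on the same scale: Ntn1, the netrin-1 ligand, held 1.17 TPM and its receptor Dcc 1.82.

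**Figure D1:**
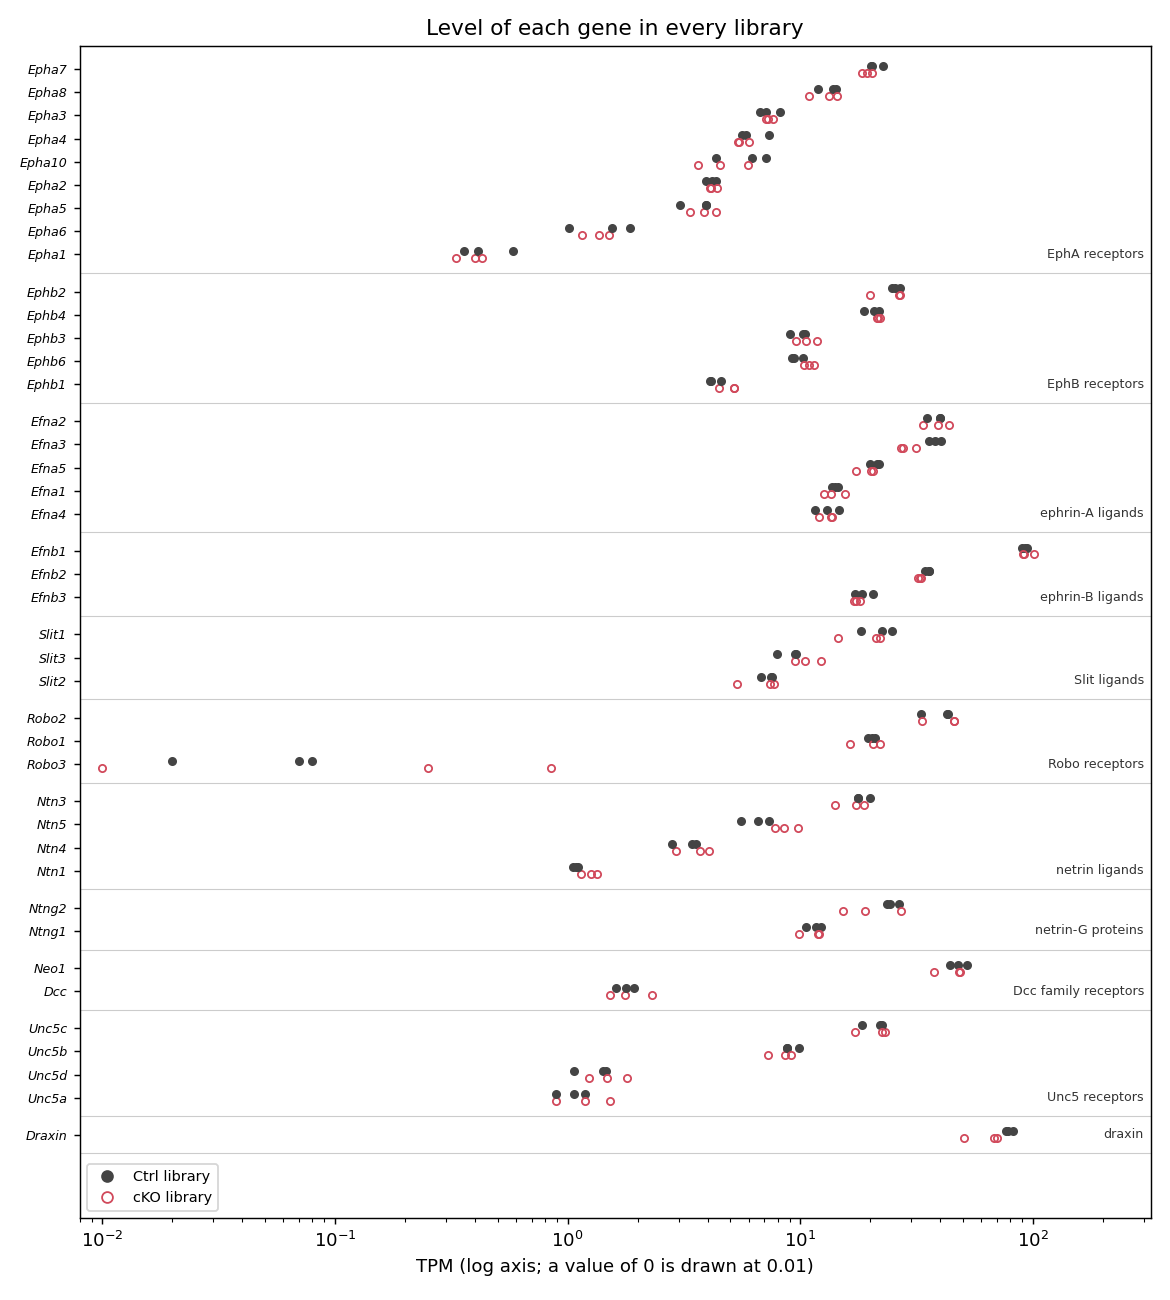
TPM of each of the 41 genes in every library (log axis), grouped by role; filled points are the 3 Ctrl libraries and open points the 3 cKO libraries. Efnb1 and Draxin lie at the high end, Robo3 and Epha1 at the low end, and for most genes the points of both groups overlap.

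In cKO, 1 member fell and none rose. By the edgeR quasi-likelihood test, at an adjusted p under 0.05 over all genes tested, Efna3 was lower; this was 1 of 40 tested members, or 2.5%, against 0.481% of all 14338 genes tested in either direction and 0.37% lower. At an unadjusted p under 0.05 there were 4 members, 2 higher (Slit3 and Ntn5) and 2 lower (Efna3 and Draxin), or 10% of those tested against 10.7% of all genes. DESeq2 called Efna3 and Draxin lower, against 184 of all 14338 genes called, 129 lower and 55 higher. No member was called by limma-voom, against 53 of all genes, 40 lower and 13 higher. Neither called a member higher. When the replicate number was added to the edgeR model as a block, 3 members were lower (Efna3, Draxin and Slit1) and none higher, 7.5% of those tested against 5.33% of all genes, of which 3.56% were lower and 1.76% higher. Without both number 1 libraries, Efna3 and Draxin were lower and Slit3 was higher, against 5.09% of all genes called, and with the block in addition Epha10 was also lower and Ntn5 also higher, against 8.72%. In the blocked model without number 2, Efna3 and Draxin were lower, against 1.81% of all genes. Without number 3 these were joined by Slit1, Epha10 and Ntng2, all lower, against 5.82%. The groups did not overlap for 5 members, 3 lower and 2 higher in cKO, or 12.5% against 16.6% of all genes (8.77% lower and 7.83% higher). Within same-numbered pairs, 10 members (25%) were lower in all 3 and 7 (17.5%) higher in all 3, against 20.3% and 19.6% of all genes.

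The data bounded the size of change for most members. For 34 of 40 members, or 85.0%, the 95% interval of the fold change lay inside 1.5-fold in either direction, and for 25 it lay inside 1.3-fold. Over all genes tested the corresponding shares were 84.0% and 66.5%. The 6 intervals that reached beyond 1.5-fold were those of Epha1, Epha6, Epha10, Ntng2, Unc5a and Ntn5. Over all genes tested the log2 fold change was negative for 6963 and positive for 7375, with a median of 0.0044. Among the members it was negative for 24 and positive for 16, with a median of -0.04. This median ranged from -0.086 without cKO replicate 3 and -0.071 without cKO replicate 2 to -0.013 without cKO replicate 1, and was 0.0029 without both number 1 libraries.

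**Figure D2:**
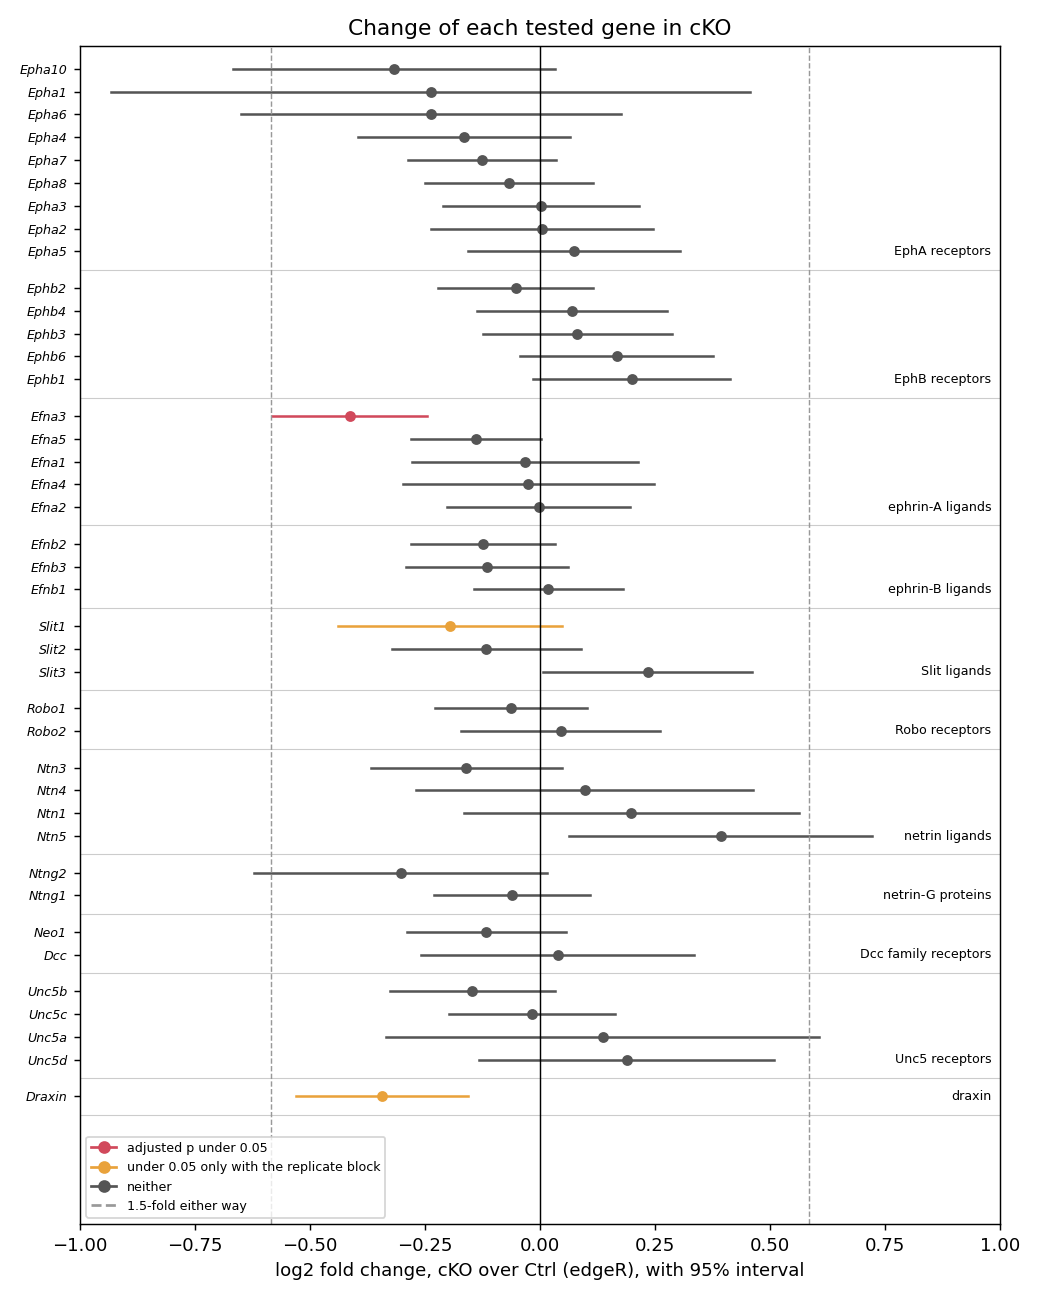
log2 fold change of cKO over Ctrl with its 95% interval for the 40 tested genes, by role group; the dashed lines mark 1.5-fold. Efna3 is the member past the threshold in the edgeR model, Draxin and Slit1 passed it with the replicate block, and the 6 intervals that cross a dashed line belong to Epha1, Epha6, Epha10, Ntng2, Unc5a and Ntn5.

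Among the ephrin-A ligands, Efna3 fell and the other 4 did not pass the test. Efna3 (gene identifier 13638; chromosome 3, 89313899 to 89322939, GRCm38) encodes ephrin-A3, a lipid-anchored ligand of EphA receptors. It held 43.6, 42.9 and 46.1 normalised CPM in Ctrl replicates 1 to 3 and 33.9, 35.0 and 30.7 in cKO. Every cKO library lay below every Ctrl library, and the mean went from 44.2 ± 1.68 to 33.2 ± 2.27 CPM (SD, n = 3 libraries per group). The log2 fold change was -0.41 (SE 0.08, edgeR adjusted p 0.0449), with a 95% interval of -0.58 to -0.25. By p-value it ranked 58 among the 69 genes called. Within pairs of the same replicate number the log2 difference was -0.36, -0.29 and -0.58. With the replicate block the edgeR adjusted p was 0.0023. The call was lost with library totals (edgeR adjusted p 0.0606), with limma-voom (adjusted p 0.0516) and when Ctrl replicate 1, 2 or 3 or cKO replicate 2 or 3 was removed (adjusted p by edgeR as high as 0.219). Over all 6 single removals the log2 fold change ranged from -0.45 to -0.36. An antisense gene overlaps an exon of Efna3, and the counting is not stated to use strand.

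Efna3 lies between 2 other ephrin-A genes on chromosome 3, Efna1 (89271730 to 89280951) and Efna4 (89333393 to 89338028), with gaps of 32.9 and 10.5 kb. These neighbours are described for their position. Efna1 held 10.3, 9.23 and 9.07 CPM in Ctrl and 9.17, 10.1 and 8.75 in cKO, and Efna4 held 11.4, 9.41 and 8.46 in Ctrl and 9.57, 9.69 and 9.56 in cKO. Both sets overlapped between the groups. Their log2 fold changes were -0.03 (SE 0.11) and -0.03 (SE 0.12), with 95% intervals of -0.28 to 0.21 and -0.30 to 0.25. The TPM of Efna3 over the summed TPM of Efna1 and Efna4 was 1.22, 1.4 and 1.60 in Ctrl and 1.1, 1.07 and 1.02 in cKO. This ratio is given as a description, since Efna3 was picked for its lower values.

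The other ephrin-A genes were Efna2 and Efna5. Efna2 had 44.0, 40.6 and 35.8 CPM in Ctrl and 37.7, 43.7 and 38.9 in cKO, a log2 fold change of -0.0033 (SE 0.09) whose sign turned under several settings. Efna5, named after its values were seen, had 59.2, 58.7 and 60.4 CPM in Ctrl and 52.1, 54.4 and 55.3 in cKO. Its groups did not overlap, but the difference did not pass the test in either model (log2 fold change -0.14, SE 0.06, edgeR adjusted p 0.480; 0.177 with the replicate block). Summed over all 5 ephrin-A genes, the level was 123 to 127 TPM in Ctrl and 103, 125 and 114 TPM in cKO replicates 1 to 3.

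Draxin passed the test in each blocked model run, with DESeq2 and without both number 1 libraries, but not in the edgeR model without pairing on all 6 libraries. Draxin (gene identifier 70433; chromosome 4, 148098437 to 148131139, GRCm38) encodes a secreted repellent that binds Dcc and netrin-1. It held 225, 222 and 213 CPM in Ctrl replicates 1 to 3 and 151, 182 and 188 in cKO. All cKO libraries were below all Ctrl libraries, and cKO replicate 1, the library richest in erythroid and macrophage markers, was the lowest. The mean went from 220 ± 6.30 to 173 ± 20.0 CPM (SD, n = 3). The log2 fold change was -0.34 (SE 0.09, 95% interval -0.53 to -0.16), which did not pass in the edgeR model without pairing (edgeR adjusted p 0.125) and passed with the replicate block (-0.35, SE 0.07, blocked edgeR adjusted p 0.01). Without both number 1 libraries it was -0.23, with an edgeR adjusted p of 0.0086. Without cKO replicate 1 alone it was -0.25 (edgeR adjusted p 0.116). The part of the glial, macrophage and erythroid RNA, and of the lower Isl1 and Stmn2, in the lower Efna3 and Draxin values was not tested. In bulk tissue, fewer cells of a type and less RNA per cell cannot be told apart.

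The promoter windows of the 2 genes with the lowest log2 fold changes among members over 20 TPM, Efna3 and Draxin, are shown because their transcripts were lower in every cKO library. Y-box proteins take their name from binding to the Y-box, a promoter element with an inverted CCAAT sequence. Each window runs from 250 bases before to 50 after an annotated start, 5′ to 3′ on the minus strand of GRCm38.p6, from RefSeq, with any CCAAT or ATTGG, the same motif read on either strand, in capitals. The windows are chr3:89322890-89323189 for Efna3, the one of its 2 windows with a match, and chr4:148130649-148130948 for Draxin.
Efna3: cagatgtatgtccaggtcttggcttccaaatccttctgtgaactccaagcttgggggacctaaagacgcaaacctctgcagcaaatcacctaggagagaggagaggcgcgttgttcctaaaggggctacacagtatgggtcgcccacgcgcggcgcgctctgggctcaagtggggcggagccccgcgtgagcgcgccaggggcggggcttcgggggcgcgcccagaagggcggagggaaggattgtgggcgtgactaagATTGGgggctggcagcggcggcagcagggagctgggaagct
Draxin: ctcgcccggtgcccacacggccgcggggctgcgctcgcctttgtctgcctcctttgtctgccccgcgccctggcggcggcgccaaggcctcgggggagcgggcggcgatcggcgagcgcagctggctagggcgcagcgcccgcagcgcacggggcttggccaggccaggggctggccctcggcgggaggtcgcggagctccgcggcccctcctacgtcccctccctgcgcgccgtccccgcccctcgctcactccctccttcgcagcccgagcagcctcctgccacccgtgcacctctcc
The Efna3 window held 1 match, an ATTGG that begins 9 bases after the start, while its other window, chr3:89321719-89322018, and the Draxin window held none. GC content was 64.0% and 78.0% in the windows shown. Of all 32851 promoter windows of this length in the table, 37.4% held a match. Of the 41 member windows 15, or 36.6%, held a match. Of the 41 member genes 36 had a window, and 14 of these 36, or 38.9%, held a match in at least 1 window. This last share is per gene and cannot be set beside the shares per window, since some genes had more than 1 window. A match of 5 letters is a description of the sequence and not a binding site.

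**Figure D3:**
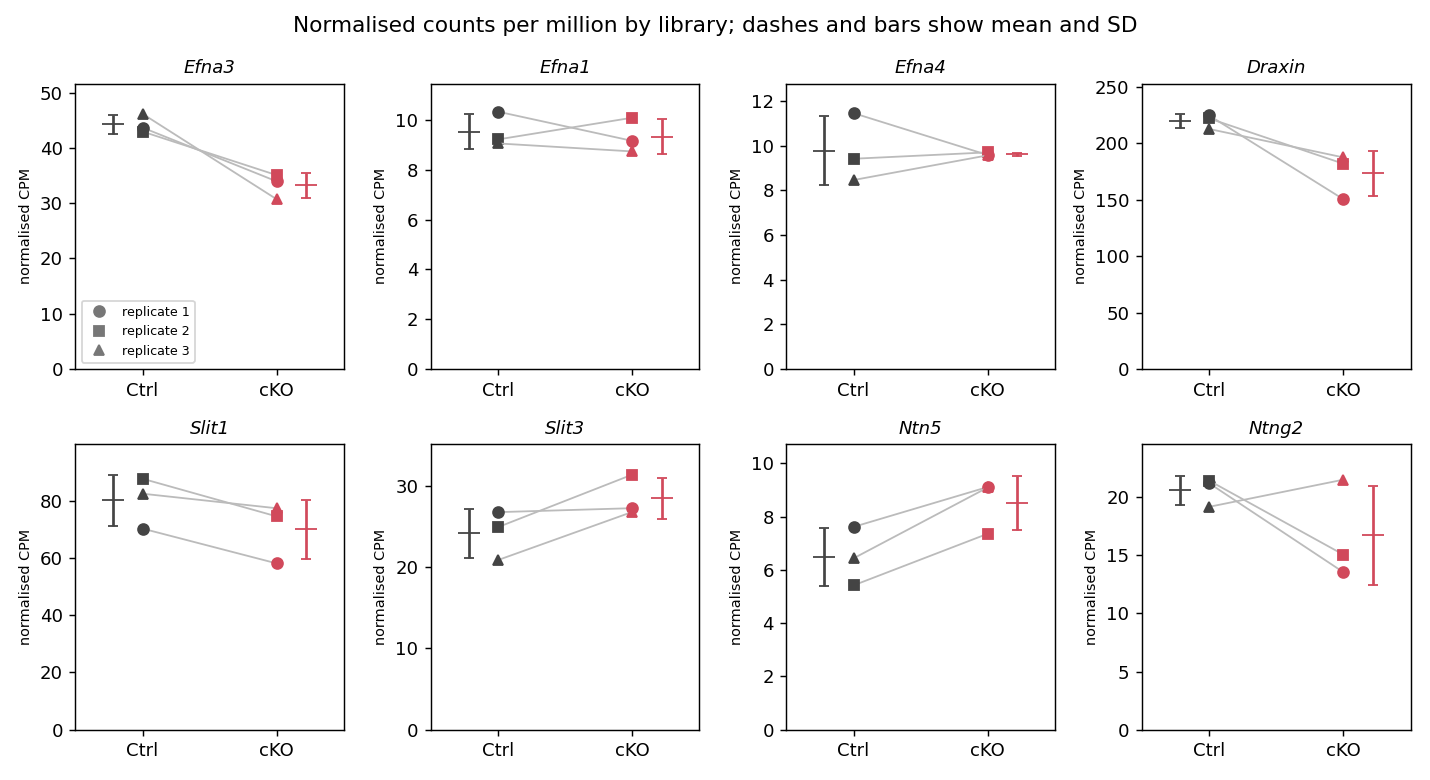
Normalised CPM of 8 genes in each library, with grey lines joining libraries of the same replicate number and side marks for the mean and SD of 3 libraries. Efna3 and Draxin are lower in all 3 cKO libraries, Efna1 and Efna4 overlap, Slit1 is lower and Slit3 and Ntn5 are higher within every pair, and Ntng2 is lower in pairs 1 and 2 and higher in pair 3.

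Of the 3 Slit genes, secreted repellents, none passed the test without pairing, and Slit1 was lower with the replicate block. Slit1 (chromosome 19, 41597824 to 41747275) held 70.3, 87.8 and 82.5 CPM in Ctrl and 58.1, 74.6 and 77.4 in cKO. The groups overlapped, but the cKO library was lower within each pair, by -0.27, -0.23 and -0.09 on the log2 scale. The log2 fold change was -0.20 (SE 0.11, edgeR adjusted p 0.597), and with the replicate block it was -0.20 (SE 0.06, blocked edgeR adjusted p 0.0481). This call rested on the scaling, since the blocked edgeR adjusted p was 0.0564 with DESeq2 size factors and 0.0791 with library totals. It also rested on the libraries, since the blocked edgeR adjusted p was 0.0855 without both number 1 libraries and 0.379 without both number 2 libraries, but 0.0125 without both number 3 libraries. Without cKO replicate 1 the unblocked log2 fold change was -0.08.

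Slit3 (chromosome 11, 35121456 to 35708507) had values of 26.8, 24.9 and 20.9 CPM in Ctrl and 27.3, 31.4 and 26.8 in cKO. Every cKO library was above every Ctrl library, by a narrow margin. The log2 fold change was 0.23 (SE 0.10, 95% interval 0.0075 to 0.46), with an edgeR adjusted p of 0.451 and 0.0933 with the replicate block. Without both number 1 libraries it was 0.34, with an edgeR adjusted p of 0.0321. It was 0.14 without Ctrl replicate 3 (edgeR adjusted p 0.842) and 0.16 without cKO replicate 2 (edgeR adjusted p 0.809). In the blocked model it was 0.19 without number 2 (edgeR adjusted p 0.513) and 0.18 without number 3 (edgeR adjusted p 0.276). Slit2 did not pass in any setting, with a log2 fold change of -0.12 (SE 0.09).

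The Robo receptors gave no call. Robo2, the most abundant by TPM, had 167, 200 and 203 CPM in Ctrl and 170, 209 and 208 in cKO, a log2 fold change of 0.05 (SE 0.10, 95% interval -0.17 to 0.26). Both number 1 libraries were lower than the other 4, whatever the genotype. Robo1 had 87.7, 84.0 and 87.2 CPM in Ctrl and 75.0, 83.5 and 89.4 in cKO (log2 fold change -0.06, SE 0.08). Robo3, known for letting commissural axons of the spinal cord cross the midline, was not tested. It had 2, 2 and 1 counts in Ctrl replicates 1 to 3 and 9, 0 and 26 in cKO. Over 8 spinal cord markers the summed level was 3.63 TPM in that high library, cKO replicate 3, against 1.71 to 2.80 in the other 5 libraries, but the markers differed in pattern. Lhx1 (26 counts), Pax2 (17), Lbx1 (9), Pax7 (6) and Lhx5 (4) were highest in cKO replicate 3, whereas Nkx6-1 was lowest there (16) and Olig2 was at 0. Pax6 rose in cKO: its counts were 13, 18 and 15 there and 3, 3 and 4 in Ctrl (log2 fold change 2.12, SE 0.39, edgeR adjusted p 0.0449). The part of spinal cord RNA in the Robo3 counts was not tested.

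The EphA receptors were led by Epha7 and Epha8 on the TPM scale, and none passed the test with all 6 libraries. Epha7 took 31.5% to 34.8% of the summed EphA level in TPM and Epha8 19.8% to 22.4% in the 6 libraries. Epha7 had 68.4, 61.9 and 72.2 CPM in Ctrl and 63.2, 59.9 and 62.3 in cKO, and Epha8 had 31.6, 34.7 and 34.1 in Ctrl and 29.2, 32.1 and 34.6 in cKO. Their groups overlapped, with log2 fold changes of -0.13 (SE 0.07) and -0.07 (SE 0.08). Across the 9 genes, 6 had negative values, and the range was -0.32 to 0.07 with a median of -0.13. By edgeR without pairing none had an unadjusted p under 0.05, and DESeq2 and limma-voom called none. In the edgeR model with the replicate block the unadjusted p was 0.0406 for Epha7 and 0.0143 for Epha10. The lowest was Epha10, a receptor whose kinase domain is inactive, named after its values were seen. It had 11.7, 17.4 and 15.7 CPM in Ctrl and 10.5, 10.9 and 14.6 in cKO (log2 fold change -0.32, SE 0.16, edgeR adjusted p 0.534; 0.134 with the replicate block). In the blocked model Epha10 passed, as lower, without both number 1 libraries and without both number 3 libraries. Its groups overlapped, it was lower within each pair, and its counts were fractional in 2 libraries, as where reads are shared between genes. Epha1 had 10 to 16 counts per library, too few to bound a change.

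The EphB receptors gave small positive values in 4 of 5 genes, none past the test. Ephb2, the most abundant by TPM, had 88.4, 91.7 and 85.6 CPM in Ctrl and 77.2, 86.4 and 92.5 in cKO, a log2 fold change of -0.05 (SE 0.08) that turned to 0.014 without cKO replicate 1. Ephb4, known for vessel development, had 52.7, 41.8 and 46.8 CPM in Ctrl and 54.2, 46.8 and 47.2 in cKO (log2 fold change 0.07, SE 0.09). Ephb1, named after its values were seen, had 10.7, 10.004 and 11.2 CPM in Ctrl and 11.9, 12.3 and 12.4 in cKO. Its groups did not overlap, and its log2 fold change of 0.20 (SE 0.10) did not pass (edgeR adjusted p 0.518; 0.292 with the replicate block). Over the 5 genes the range was -0.05 to 0.20 with a median of 0.08, by edgeR none had an unadjusted p under 0.05, and DESeq2 and limma-voom called none.

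None of the ephrin-B ligands, which bind EphB receptors and can signal back into their own cell, passed the test. Efnb1 held 170, 152 and 161 CPM in Ctrl and 170, 168 and 151 in cKO, a log2 fold change of 0.02 (SE 0.07, 95% interval -0.14 to 0.18). Efnb2 held 96.9, 86.3 and 90.4 CPM in Ctrl and 88.7, 81.8 and 80.6 in cKO, lower within each pair (log2 fold change -0.12, SE 0.07, edgeR adjusted p 0.608; 0.2 with the replicate block). For all 3 ephrin-B genes the interval lay inside 1.3-fold. Summed, they held 143 to 151 TPM in Ctrl and 140 to 152 in cKO.

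The netrin ligands were led by Ntn3 on the TPM scale, at 17.6, with Ntn5 at 7.60, Ntn4 at 3.41 and Ntn1 at 1.17. Ntn3 had 54.9, 45.1 and 45.7 CPM in Ctrl and 39.7, 43.4 and 47.3 in cKO (log2 fold change -0.16, SE 0.09, edgeR adjusted p 0.618). The groups overlapped. Ntn3 shares exon sequence on its own strand with Tbc1d24, so reads could be shared, though its estimated counts were whole in all 6 libraries. Ntn5 had 7.61, 5.42 and 6.43 CPM in Ctrl and 9.11, 7.36 and 9.10 in cKO, higher within each pair by 0.24, 0.41 and 0.47 on the log2 scale. Its log2 fold change of 0.39 (SE 0.15, 95% interval 0.06 to 0.72) was the most positive of the 40, with an edgeR adjusted p of 0.358 and 0.0724 with the replicate block. Ntn5 counts were fractional in all 6 libraries, and its exons overlap Sec1 on the opposite strand. Ntn1 had 55 to 59 counts per library in Ctrl and 58 to 77 in cKO (log2 fold change 0.20, SE 0.17), named for its role.

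Netrin-G proteins are lipid-anchored relatives that bind synaptic adhesion proteins of the NGL family and not Dcc. Ntng2 had 21.2, 21.4 and 19.2 CPM in Ctrl and 13.6, 15.1 and 21.5 in cKO. Low values were found in cKO replicates 1 and 2, and cKO replicate 3 was the highest of the 6 libraries. The log2 fold change was -0.30 (SE 0.15, edgeR adjusted p 0.502), and single removals moved it from -0.53 without cKO replicate 3 to -0.17 without cKO replicate 1. In the blocked model without both number 3 libraries it was -0.58 (edgeR adjusted p 0.000435). That model leaves out the pair in which Ntng2 was higher in cKO, by 0.16 on the log2 scale, against -0.63 and -0.49 in pairs 1 and 2. It was fitted after seeing the data and rests on few libraries. Ntng1 had 32.0, 34.9 and 34.1 CPM in Ctrl and 30.2, 33.5 and 33.2 in cKO (log2 fold change -0.06, SE 0.08).

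The netrin receptors gave no call. Neo1, a receptor for netrins and repulsive guidance molecules, made up at least 95.5% of the summed TPM of Dcc and Neo1 in every library. It had 186, 186 and 206 CPM in Ctrl and 161, 184 and 187 in cKO (log2 fold change -0.12, SE 0.08, edgeR adjusted p 0.672). Dcc had 9.53, 10.7 and 9.87 CPM in Ctrl and 9.11, 9.29 and 12.5 in cKO, so the high value was that of cKO replicate 3 (log2 fold change 0.04, SE 0.14; -0.13 without that library). Among the Unc5 receptors Unc5c held 62.8% to 67.0% of the summed TPM. It had 99.5, 110 and 113 CPM in Ctrl and 94.6, 113 and 110 in cKO, a log2 fold change of -0.02 (SE 0.08, 95% interval -0.20 to 0.16). Unc5b had 29.4, 30.2 and 27.1 CPM in Ctrl and 24.6, 26.0 and 27.7 in cKO (log2 fold change -0.15, SE 0.08, edgeR adjusted p 0.590). Unc5a, with 31 to 51 counts per library, and Unc5d, with 97 to 148, had log2 fold changes of 0.14 (SE 0.22) and 0.19 (SE 0.15) and did not pass.

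**Figure D4:**
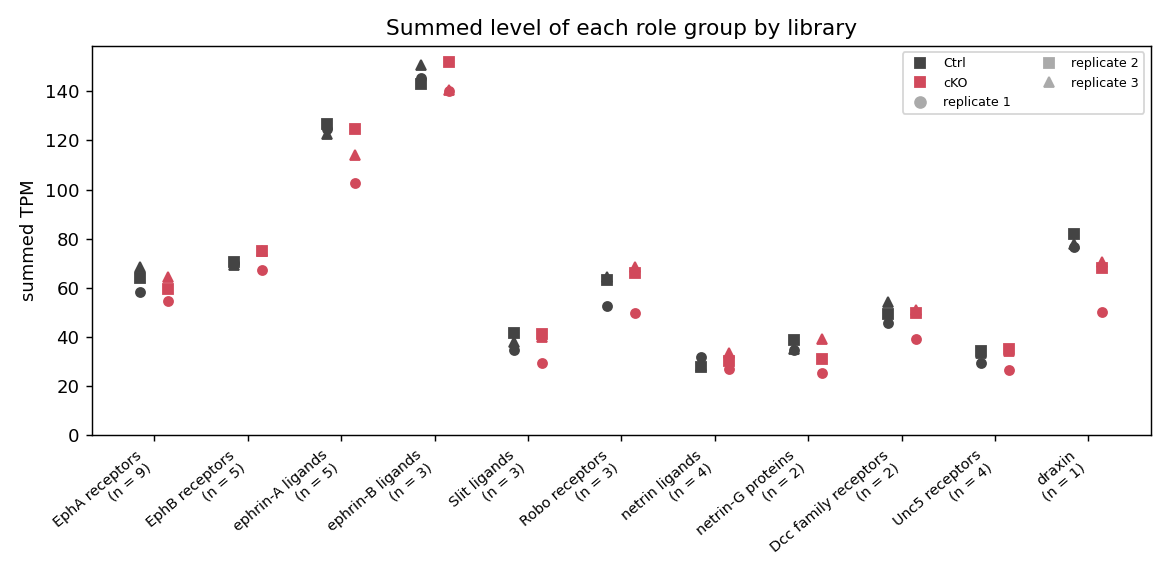
Summed TPM of each role group in every library, with symbols for the replicate number and colour for the group. cKO replicate 1, the library with the highest erythroid TPM, is the lowest library in each role group. Ctrl replicate 1 is the next lowest for the EphA, Slit, Robo, Dcc family and Unc5 groups. Draxin is the one role group with all cKO libraries below all Ctrl libraries.

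Binding partners and effectors of these systems were read from 3 lists of 59 genes in all, each of which was tested. By edgeR without pairing none passed, and 3 higher and 3 lower had an unadjusted p under 0.05 (10.2% against 10.7% of all genes). DESeq2 called 2 lower (Chn1 and Nell2), against 184 of all 14338 genes, 129 of them lower, and limma-voom called none. With the replicate block 2 were higher and 2 lower, 6.78% against 5.33% of all genes. Nell2, a secreted ligand of Robo3, had 128, 110 and 117 CPM in Ctrl and 85.1, 91.3 and 98.4 in cKO. The groups did not overlap, and the log2 fold change was -0.37 (SE 0.08, edgeR adjusted p 0.0715; 0.0042 with the replicate block). Chn1, a chimaerin that turns off Rac below EphA4, had 129, 120 and 119 CPM in Ctrl and 101, 102 and 101 in cKO. It too had no overlap (log2 fold change -0.27, SE 0.07, edgeR adjusted p 0.103; 0.0058 with the replicate block).

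Higher with the block were Lrrc4, the NGL partner of netrin-G2, and Sos1, an activator of Ras and Rac used below Robo. Lrrc4 had 9.18, 7.44 and 6.80 CPM in Ctrl and 10.6, 10.2 and 11.3 in cKO (log2 fold change 0.45, SE 0.13, edgeR adjusted p 0.182; 0.0372 with the replicate block). Sos1 had 76.0, 83.2 and 86.4 CPM in Ctrl and 84.1, 97.2 and 98.1 in cKO (log2 fold change 0.19, SE 0.08, edgeR adjusted p 0.434; 0.0468 with the replicate block, and 0.0524 with DESeq2 size factors in addition). In the blocked model without number 2, Chn1, Lrrc4 and Sos1 did not pass (edgeR adjusted p 0.0526, 0.156 and 0.438), nor did Lrrc4 and Sos1 without number 3 (edgeR adjusted p 0.210 and 0.0754). The most abundant gene of each list by TPM did not pass: Adam10, a protease that sheds ephrins (log2 fold change -0.10, SE 0.08), Gpc1, a heparan sulfate proteoglycan that binds Slits (0.02, SE 0.07), and Maged1, which binds Unc5a (-0.01, SE 0.08).

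The members' transcripts were longer and richer in GC than those of other genes. In the longest GENCODE M21 coding transcript of each gene, the median length was 4771 bases for the 40 tested members and 3247 for the 13873 matched of 14338 genes tested. The median GC content was 55.3% and 50.3%. CATC, letters that the cold-shock domain of Ybx1 is known to favour in RNA, occurred 4.88 times per kb on the transcript strand among tested members and 4.27 times among all genes, both as medians. For the members that passed with the replicate block, the rate was 3.81 per kb in Efna3, 4.62 in Draxin and 5.99 in Slit1, on either side of the median. These are descriptions of sequence, not of binding.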

How the data were processed

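Gene expression was measured by RNA-seq in 3 cKO and 3 Ctrl libraries. Per the submitters' processing notes, the tools were RSEM 1.3.1, HISAT2 2.2.1 and Bowtie2 2.4.5, and the build GRCm38 (mm10); roles and order are not given in the sources used here. For each library the authors deposited unnormalized estimated counts and TPM values, used here to compare levels between genes. The deposited FPKM values and the authors' group means were not used. Columns were matched to libraries by sample code, and 0 columns lacked a sample.

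Counts were rounded to whole numbers and filtered by filterByExpr, which left 14338 of 17971 genes. After TMM scaling, edgeR 4.0.16 (R 4.3.3) gave two-sided quasi-likelihood p-values from a robust fit, adjusted over all genes tested by Benjamini and Hochberg; the threshold was 0.05. An SE is the absolute log2 fold change over the square root of F, and 95% intervals come from the SE and the t quantile, per gene and not adjusted for the number of genes. Pair differences are of log2(CPM + 0.5). The biological coefficient of variation was 7.79%. The models were tested on simulated data with the same dispersion for every gene. A pair effect was simulated for the blocked model and not for the model without the block. The simulation therefore cannot show how either model does where the pairing is uncertain.

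Titles carry replicate numbers 1 to 3 per group, and sample codes begin alike within a number. Deviations of same-numbered libraries from the group means correlated at 0.383, 0.220 and 0.189 across genes, so same-numbered libraries were treated as pairs; the main model has no block. The design text calls the samples biological; nothing else says that they came from separate embryos, so p-values measure the spread between these samples. Members and lists were chosen with earlier results of these data known. Per-library values are given for members past the threshold in either edgeR model and for the 2 highest by TPM in each role group; others are named where marked, or for their role or position. Of the partner lists, the genes past the threshold in either model and the highest by TPM are named. Alternatives were DESeq2 1.42.0 and its size factors, library totals, voom of limma 3.58.1, other low-count filters, the replicate block and leaving out libraries; models without both libraries of a number were added after seeing the data. Gene coordinates are from the RefSeq table of GRCm38.p6. Python 3.11.15 with matplotlib 3.10.9 drew the figures.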

Additional observations from a re-analysis of the deposited data

How the results depend on the processing

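Over all genes, 69 calls became 44 with library totals (16 higher and 28 lower, against 16 and 53), 184 with the DESeq2 test, 128 with no low-count filter, and 18 to 104 on leaving out one library. With the replicate block they were 764, 799 with library totals in addition (396 higher and 403 lower, against 253 and 511) and 731 with DESeq2 size factors. Without both libraries numbered 1 they were 731, and with the block 1252, 260 and 836 without the libraries numbered 1, 2 or 3. The 1 member called became 0 with library totals and with limma-voom, 2 with DESeq2, and 0 to 1 on leaving out one library. With the replicate block it became 3, or 2 with library totals or DESeq2 size factors; without the libraries numbered 1, 2 or 3 the block gave 5, 2 and 5, and the model without the block and without number 1 gave 3. The 0 partner genes called became 2 with DESeq2, 1 with no low-count filter, and 4, 5 and 3 with the block alone, with library totals and with DESeq2 size factors. They were 8 without both number 1 libraries, and 10, 1 and 2 with the block without number 1, 2 or 3; they were 0 on leaving out any one library. Efna3 was called in each blocked model run.

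Of the 40 tested members, 18 were negative and 7 positive in every setting run, and the sign of 15 turned at least once. Among these, over all settings, Efna1 ranged from -0.12 to 0.04, Efna4 from -0.12 to 0.11 and Unc5a from -0.04 to 0.31. With library totals Efna2 was 0.023, Unc5c 0.0085 and Maged1 0.014, and with the block in addition 0.024, 0.0068 and 0.014. Without both number 1 libraries Ephb2 was 0.013, Efna2 0.11, Robo1 0.015 and Unc5c 0.0062, and with the block 0.013, 0.11, 0.014 and 0.0062. With the block and without number 2, Efnb1 was -0.048 and Gpc1 -0.019; without number 3, Dcc was -0.14, Gpc1 -0.012 and Maged1 0.025. On leaving out one library the log2 fold changes ranged from -0.12 to 0.014 for Ephb2, -0.013 to 0.16 for Ephb4, -0.078 to 0.068 for Efna2, -0.024 to 0.068 for Efnb1, -0.13 to 0.0028 for Robo1, -0.039 to 0.14 for Robo2, -0.13 to 0.12 for Dcc, -0.069 to 0.057 for Unc5c, -0.016 to 0.087 for Gpc1 and -0.054 to 0.018 for Maged1. The causes were not tested. Depth limits Robo3, Epha1 and Unc5a, with at most 51 counts in a library.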

Other observations

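Levels were also read as shares of each role group's summed TPM. Efna3 made up 30.5% ± 2.26 of the ephrin-A level in Ctrl and 25.3% ± 1.14 in cKO (SD, n = 3). Ntn3 made up 63.0% ± 0.374 of the netrin level in Ctrl and 55.3% ± 2.33 in cKO, and Ntn5 22.2% ± 1.89 and 28.8% ± 2.92. These 3 sets of shares did not overlap between the groups. The shares of Epha2, Ephb1, Efna1, Efna2, Efnb1 and Unc5d, all higher in cKO, and of Efnb2, lower, did not overlap either. How often such shares separate in other gene groups was not computed, so this list has no background to be read against. On CPM the groups did not overlap for 16.6% of all genes tested. Within the ephrin-A level, Efna2 went from 30.7% ± 1.92 to 34.0% ± 1.20 and Efna1 from 11.3% ± 0.296 to 12.2% ± 0.336. Slit1 held 56.9% ± 3.56 of the Slit level in Ctrl and 52.0% ± 2.89 in cKO, and Slit3 23.9% ± 3.35 and 29.5% ± 3.03, and for both the groups overlapped. Shares of a group depend on one another, and these were looked at after the fold changes of the same genes were known and were not tested.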
